A study of Mus musculus with 4 samples.

Results

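Cornified envelope genes were followed through the keratinocyte layers of the mouse gum (gingiva). The set held 10 of the 32285 genes counted, taken by symbol: Tgm1, Tgm3, Lor, Sprr1a, Sprr1b, Krtdap, Sbsn, Ivl, Dmkn and Calml3. Single-cell RNA was counted in droplet libraries of 4 groups, with 1 library in each: gingiva labelled disease and treated with metformin, disease gingiva, gingiva with metformin treatment, and healthy gingiva. Metformin is a glucose-lowering drug, and the study addressed its effect on gingiva in the prevention of periodontal disease. The tissue was cut from the upper jaw and digested with collagenase and DNase, so the cells were those that left the tissue in that digestion. The number of mice behind a library, their strain and age, how disease was induced and how metformin was given were not stated in the sources used here. With 1 library a group, differences between conditions had no replicate check and no test. Layers, by contrast, could be compared within each of the 4 libraries.

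The cornified envelope is the protein shell that replaces the plasma membrane of a keratinocyte at the end of its life. Transglutaminases cross-link precursor proteins such as loricrin, involucrin and the small proline-rich proteins under the membrane, while secreted proteins and lipids fill the space between the cells. Gingival epithelium has a keratinized outer face, whose upper cells make Krt76 and related keratins, and non-keratinized or soft-mucosa regions, whose upper cells make Krt4 and Krt13.

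Sbsn, Dmkn and Krtdap lie side by side on the plus strand of chr7:30751471-30791097 (GRCm38), a stretch of 39627 bases with these 3 protein-coding genes and no other. Sbsn ended 7621 bases before Dmkn, and Dmkn ended 6832 bases before Krtdap. Lor, Sprr1b, Sprr1a and Ivl lie on the minus strand of chr3:92080271-92573735, within 493465 bases that held 21 protein-coding genes. Tgm1 is on chromosome 14, Tgm3 on chromosome 2 and Calml3 on chromosome 13. Sbsn overlaps Tmem147os on its own strand, Tgm1 overlaps Gm49067 and Tgm3 overlaps Mir6339 on the other strand, and reads from such pairs may not be told apart. The transcripts of Sprr1a and Sprr1b shared 55.8% of their last 300 bases, where 3′ libraries take most reads, with a longest common run of 20 bases.

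Promoters are shown for the 3 neighbours on chromosome 7, whose levels went together across layers, and for Sprr1a and Sprr1b, relatives whose summed soft-mucosa levels were highest in different libraries. Sequences are from RefSeq (GRCm38.p6), 5′ to 3′ on the strand of the gene. Capitals mark TGANTCA, the motif bound by AP-1, a family of transcription factors that respond to growth and stress signals. N stands for any base, and the motif is its own reverse complement, so 1 search covers both strands.
Krtdap promoter (chr7:30787655-30787954, plus strand): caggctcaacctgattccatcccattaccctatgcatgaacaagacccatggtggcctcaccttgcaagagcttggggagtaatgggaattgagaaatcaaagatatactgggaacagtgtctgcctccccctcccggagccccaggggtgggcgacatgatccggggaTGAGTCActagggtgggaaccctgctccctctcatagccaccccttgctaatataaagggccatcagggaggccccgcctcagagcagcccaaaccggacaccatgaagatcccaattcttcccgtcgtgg
Sbsn promoter (chr7:30751221-30751520, plus strand): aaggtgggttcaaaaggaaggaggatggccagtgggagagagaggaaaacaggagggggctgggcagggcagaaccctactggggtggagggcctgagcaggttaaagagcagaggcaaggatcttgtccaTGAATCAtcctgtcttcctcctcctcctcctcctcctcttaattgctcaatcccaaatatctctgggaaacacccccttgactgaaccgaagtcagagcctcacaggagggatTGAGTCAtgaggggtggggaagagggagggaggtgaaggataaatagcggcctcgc
Dmkn promoter (chr7:30763506-30763805, plus strand): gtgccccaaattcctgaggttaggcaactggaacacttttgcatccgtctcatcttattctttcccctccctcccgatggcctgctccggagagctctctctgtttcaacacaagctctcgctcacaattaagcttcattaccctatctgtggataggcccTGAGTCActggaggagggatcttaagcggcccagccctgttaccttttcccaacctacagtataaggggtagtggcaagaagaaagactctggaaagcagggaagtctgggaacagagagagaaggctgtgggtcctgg
Sprr1a promoter (chr3:92485832-92486131, minus strand): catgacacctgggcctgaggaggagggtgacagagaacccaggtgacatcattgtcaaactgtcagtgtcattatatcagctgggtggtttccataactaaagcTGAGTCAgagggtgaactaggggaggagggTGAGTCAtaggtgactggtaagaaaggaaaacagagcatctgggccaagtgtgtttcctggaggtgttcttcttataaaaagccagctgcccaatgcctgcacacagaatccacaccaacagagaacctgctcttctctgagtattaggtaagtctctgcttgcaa
Sprr1b promoter (chr3:92438730-92439029, minus strand): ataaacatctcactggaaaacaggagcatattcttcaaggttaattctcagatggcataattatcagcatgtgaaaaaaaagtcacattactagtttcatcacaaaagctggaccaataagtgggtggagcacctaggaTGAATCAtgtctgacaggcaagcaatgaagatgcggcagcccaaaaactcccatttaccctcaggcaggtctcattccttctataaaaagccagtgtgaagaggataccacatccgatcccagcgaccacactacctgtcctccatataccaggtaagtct
TGANTCA was found in 7 of the 9 members with a promoter in the table (Lor, Sprr1a, Sprr1b, Krtdap, Sbsn, Ivl and Dmkn) and in 7.93% of all 27025 promoters of the same length. Counted from the transcription start, its first base lay at −81 in Krtdap, at −119 and −6 in Sbsn, at −89 in Dmkn, at −146 and −116 in Sprr1a, and at −111 in Sprr1b. CACCC, searched on both strands as the box of KLF and Sp factors, was in 7 of 9 members and 56.7% of all promoters. These counts use the first start site of each gene. Dmkn has 3 start sites in the table and Tgm1 has 2, and the third of Dmkn held CACCC, which makes 8 of 9 members with it at any start site. TATAAA was in 6 of 9 members and 14.2% of all promoters. A match is a description of these letters and does not show a bound factor.

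Of 8295 barcodes, 7134 were kept, and 3240 of these were keratin-gated: 602 in disease plus metformin, 936 in disease, 1092 in metformin and 610 in healthy gingiva. Total UMIs, each counting 1 RNA molecule, ran from 12507787 to 22333858 per library. A cell belonged to the basal gate when at least 60% of its gating keratin UMIs were Krt5, Krt14 or Krt15, and to the soft-mucosa gate when at least 60% were Krt4 or Krt13. The basal gate held 463 to 942 cells a library and the soft-mucosa gate 42 to 100. The corresponding keratinized gate (Krt1, Krt2, Krt10 and Krt76) held 21 cells in all, too few to compare. A Krt76-type gate was therefore added after the data had been seen, with at least 20% of basal plus keratinized UMIs from those 4 keratins and under 20% soft-mucosa UMIs. It held 31 to 39 cells a library, of which 1 cell had 61.8% of the UMIs in healthy gingiva, and the basal-type gate was the basal gate without cells past either limit. Of keratin-gated barcodes, 31.8% to 60.6% a library held no mitochondrial UMI. Of all barcodes, 8 sequences occurred in more than 1 library, 4 of them among kept cells.

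Most envelope genes were far higher in soft-mucosa cells than in basal cells of the same library, and the genes differed in how much RNA basal cells already held. Krtdap, a small secreted protein of differentiating keratinocytes, had the most UMIs, at 11701, 10432, 19218 and 5608 CPM (the gene's UMIs, scaled to the total UMIs of the gate and not to gene length) in soft-mucosa cells of the disease plus metformin, disease, metformin and healthy libraries. In basal cells it stood at 1989, 1355, 2341 and 1490 CPM in the same order of libraries. The ranges of the layers did not overlap, and Krtdap was already abundant in basal cells. Dmkn, dermokine, another secreted product of differentiating epidermis, stood at 2206 to 3539 CPM in soft-mucosa cells and at 843 to 972 CPM in basal cells. Calml3, a calmodulin-like calcium-binding protein of epithelia, stood at 926 to 1564 CPM in soft-mucosa cells and 512 to 702 CPM in basal cells. These 3 genes were present in the lower layer and higher in the upper layer.

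Sbsn, suprabasin, and Tgm3, a transglutaminase, were the steeper genes. Sbsn stood at 1184, 1456, 1850 and 830 CPM in soft-mucosa cells, against 101, 106, 124 and 138 CPM in basal cells, in the same order of libraries. Tgm3 stood at 566, 560, 970 and 517 CPM in soft-mucosa cells, against 16.1, 23.7, 41.9 and 75.3 CPM in basal cells. Neither gene overlapped between the layers. Lor, loricrin, a glycine-rich precursor that forms much of the epidermal envelope, stood at 38.9 to 212 CPM in soft-mucosa cells and 2.60 to 7.76 CPM in basal cells. A single barcode held 32.4% of all Lor UMIs. Ivl, involucrin, had 1 UMI in all 7134 kept cells, in a basal cell of the disease library. No level of Ivl can be compared at this depth.

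**Figure D1:**
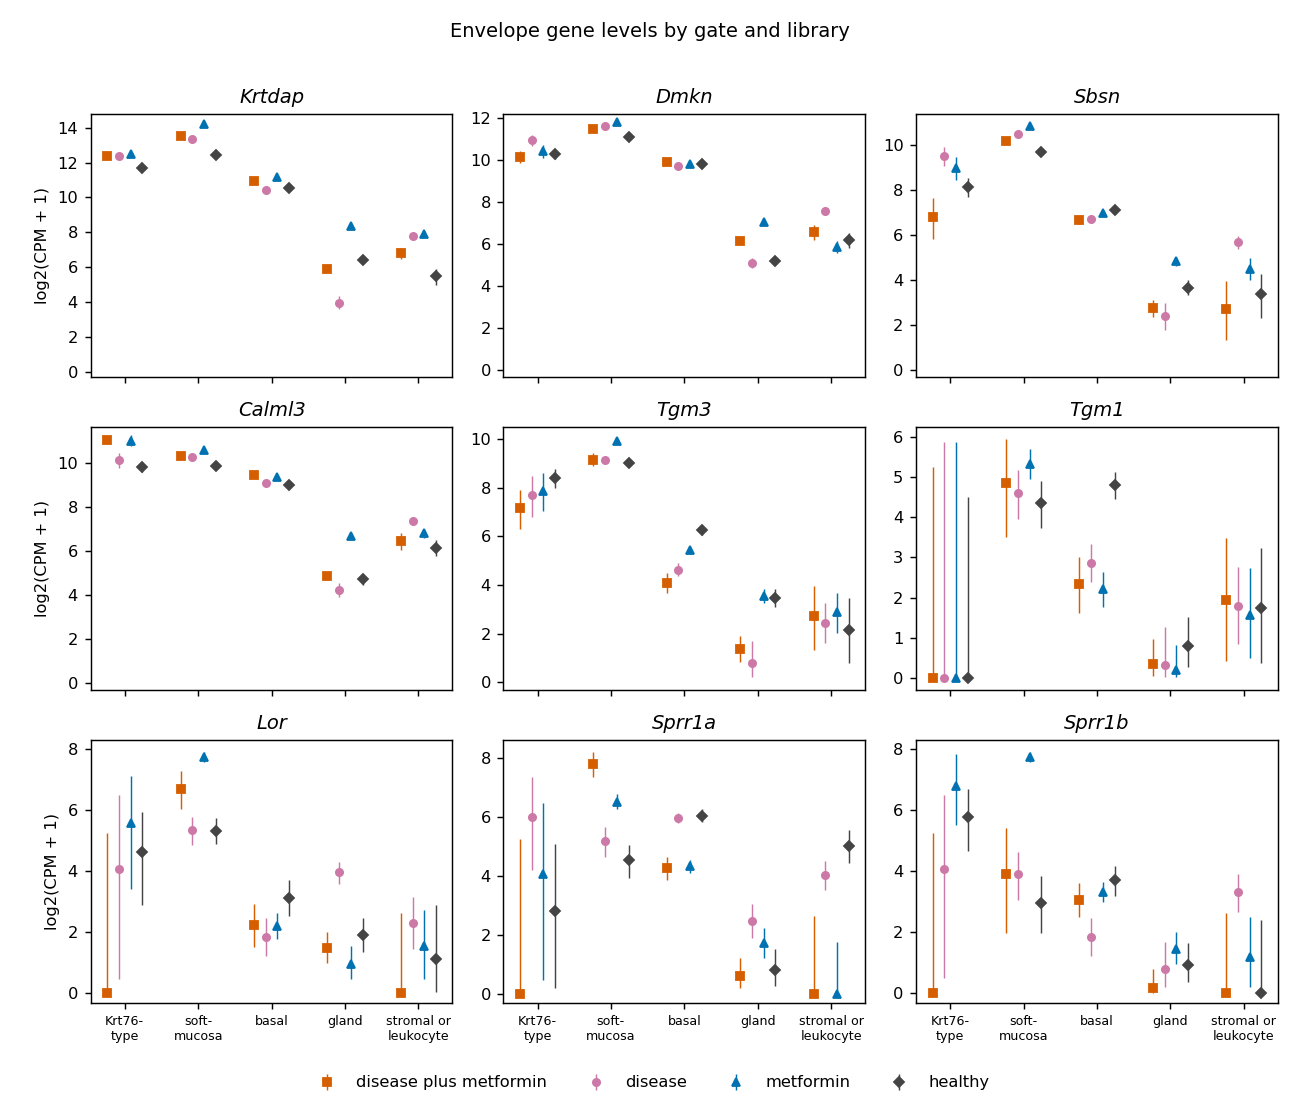
Levels of 9 envelope genes, as log2(CPM + 1), in 5 gates of cells (Ivl, with 1 UMI, is not drawn). Each point is the summed counts of 1 library, and bars are exact Poisson 95% intervals, which cover counting error only. Krtdap, Dmkn and Calml3 lie high in basal cells and higher in soft-mucosa cells, Tgm3, Lor and Sbsn are more nearly limited to the upper gates, and Tgm1 has no UMI in Krt76-type cells.

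The test over libraries called 8 of the 10 members higher in the soft-mucosa gate than in the basal gate, and none lower. Among all 9497 genes tested, 16.6% were called higher and 15.9% lower (edgeR's quasi-likelihood test with library as a block, Benjamini-Hochberg adjusted p under 0.05). The log2 fold change was 4.95 ± 0.42 (SE of the fit to 4 libraries) for Lor, 4.62 ± 0.29 for Tgm3, 3.87 ± 0.19 for Sbsn and 3.23 ± 0.64 for Sprr1b. It was 3.02 ± 0.15 for Krtdap, 2.12 ± 0.50 for Tgm1, 2.09 ± 0.12 for Dmkn and 1.46 ± 0.12 for Calml3. The largest adjusted p of the 8 was 0.00392, for Tgm1. Sprr1a, at 1.28 ± 0.57 with an edgeR adjusted p of 0.0972, did not pass, and Ivl was not tested. Without the metformin library, Tgm1 (adjusted p = 0.0879) and Sprr1b (0.20, fold change 1.09 on the log2 scale) no longer passed, and 6 members did. Sprr1a passed without the disease (0.0311) or healthy library (0.0101), and with every cell thinned to 1000 UMIs, 5 members passed. Against the basal-type gate, 9 members were higher, Sprr1a among them (1.23 ± 0.47, edgeR adjusted p = 0.0497), where 14.0% of 8415 genes were called higher and 14.2% lower. That call of Sprr1a was lost with DESeq2 (DESeq2 adjusted p = 0.256). It was also lost without the disease plus metformin (edgeR adjusted p = 0.483) or metformin library (0.512), and with cells thinned (0.409).

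Basal adhesion genes and stromal markers, which the keratin gates did not use, differed between the layers. Gland and leukocyte markers overlapped between them, and the gland list was part of the keratin gating. Of 11 genes of basal adhesion (integrins, laminin-332 chains, Col17a1 and others), 9 were lower in the soft-mucosa gate and 0 higher, with a median log2 fold change of −1.16 against −0.07 for all genes. The summed level of 20 stromal markers was 70.2 to 500.0 CPM in soft-mucosa cells and 1251 to 1624 CPM in basal cells. Of these markers 13 had a UMI in soft-mucosa cells, where Cldn5, Vwf, Flt1, Lum, Pdgfra, Pdgfrb and Rgs5 were at 0, and all 20 had one in basal cells. The summed level of 17 gland markers was 362 to 1694 CPM in soft-mucosa cells and 604 to 1529 CPM in basal cells. The summed level of 15 leukocyte markers was 2.12 to 165 CPM in soft-mucosa cells and 4.02 to 61.7 CPM in basal cells, and Ptprc was at 0 in soft-mucosa cells. In the Krt76-type gate, 11 of 17 gland markers summed to 1630 to 2967 CPM, 8 of 20 stromal markers to 125 to 272 CPM and 2 of 15 leukocyte markers to 0 to 15.8 CPM. The part of such RNA in the layer differences was not tested.

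The proline-rich pair had its highest summed soft-mucosa levels in different libraries. Sprr1a and Sprr1b are precursors that bridge other envelope proteins and are known for their rise in stressed epithelia. Sprr1a stood at 220, 35.0, 90.6 and 22.0 CPM in soft-mucosa cells, against 18.1, 61.4, 19.0 and 64.8 CPM in basal cells of the disease plus metformin, disease, metformin and healthy libraries. By these sums it was higher in soft-mucosa cells in both libraries with metformin and lower in both without, and a single barcode held 63.8% of its soft-mucosa UMIs in disease plus metformin. Sprr1b stood at 14.0, 13.8, 211 and 6.76 CPM in soft-mucosa cells, against 7.36, 2.60, 8.97 and 12.0 CPM in basal cells. Its high level was that of the metformin library, where 46.6% of the UMIs came from 1 barcode. By sums, healthy soft-mucosa cells had less of both genes than healthy basal cells, but 12 cells held 81.9% of the healthy soft-mucosa UMIs, and with every cell weighted equally both directions turned. The mean per healthy cell was 161 CPM in soft-mucosa and 50.6 CPM in basal cells for Sprr1a, and 31.7 CPM in soft-mucosa and 12.6 CPM in basal cells for Sprr1b, so the split of Sprr1a by metformin depended on the weighting. Sprr1a was found in 5.68% to 22.4% of soft-mucosa cells, 1.94% to 2.74% of basal cells and 0% to 1.53% of stromal or leukocyte cells. From cell to cell, Sprr1a and Sprr1b had rho values of 0.60, 0.31, 0.31 and 0.49 in thinned soft-mucosa cells of the 4 libraries, with a mean of at most 0.25 UMIs a cell for either gene.

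Tgm1, the membrane-bound transglutaminase of stratified epithelia, stood at 28.1, 23.4, 39.6 and 19.4 CPM in soft-mucosa cells, against 4.02, 6.30, 3.64 and 27.2 CPM in basal cells. By sums the healthy library was the exception, with more Tgm1 in basal than in soft-mucosa cells. With every cell weighted equally it was not, at 36.0 CPM in healthy soft-mucosa and 16.3 CPM in healthy basal cells.

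The share of cells with a UMI followed the same order. Krtdap was found in 97.6%, 89.0%, 98.0% and 86.4% of soft-mucosa cells in the disease plus metformin, disease, metformin and healthy libraries, against 54.1%, 54.2%, 63.0% and 49.0% of basal cells. In stromal or leukocyte cells, which should lack it, 7.22% to 10.1% held a UMI, at median depths of 4101 to 6693 UMIs against 2306 to 3039 in soft-mucosa and 1369 to 2338 in basal cells. The shallower keratinocytes thus had the larger share. Tgm1 was found in 1.49% to 3.24% of basal cells and in 0.76% to 2.06% of stromal or leukocyte cells, and Lor in 1.37% to 2.55% of basal and 0% to 1.18% of stromal or leukocyte cells. The basal cells were the shallower ones. Thinned to 1000 UMIs, 0.57% to 1.67% of basal cells and 0% to 0.65% of stromal or leukocyte cells held Tgm1, and 0.14% to 0.67% of basal and 0% to 1.06% of stromal or leukocyte cells held Lor, so the ranges overlapped for both genes. In the same thinned cells, Krtdap was found in 89.2% to 100% of soft-mucosa cells and 43.7% to 56.0% of basal cells.

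Krt76-type cells, gated at a lower keratin share than soft-mucosa cells, carried the secreted genes and Tgm3. In most libraries the levels in Krt76-type cells lay between those of basal and soft-mucosa cells. Krtdap stood there at 5381, 5300, 5669 and 3237 CPM, Sbsn at 111, 728, 515 and 284 CPM and Tgm3 at 141, 206, 234 and 331 CPM in the 4 libraries. Calml3 stood at 2132, 1139, 2093 and 905 CPM, and Dmkn at 1136, 1962, 1359 and 1231 CPM. Tgm3 overlapped with neither basal nor soft-mucosa cells, Dmkn lay between them, Sbsn overlapped with basal cells through the disease plus metformin library, Krtdap overlapped with soft-mucosa cells by a narrow margin, and Calml3 spanned the whole soft-mucosa range. Tgm1 had 0 UMIs in all 135 Krt76-type cells, while 3 counts over the gate would be 7.58 CPM. Soft-mucosa cells had 28.5 CPM of Tgm1 over the 4 libraries, 3.76 times that level of 3 counts. Basal-type cells also had 7.58 CPM, so 0 UMIs cannot set Krt76-type cells apart from them. Lor had 8 UMIs there and Sprr1a 6.

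In the test over libraries, 6 members were higher in the Krt76-type than in the basal-type gate, where 1.53% of 8415 genes were called higher and 1.69% lower. The log2 fold changes were 3.81 ± 0.95 for Sprr1b (edgeR adjusted p = 0.0146), 3.27 ± 0.30 for Tgm3, 2.07 ± 0.31 for Sbsn, 1.78 ± 0.22 for Krtdap, 1.48 ± 0.20 for Calml3 and 0.83 ± 0.21 for Dmkn (0.0200). Lor, at 2.46 ± 0.96 (adjusted p = 0.204), and Sprr1a, at −1.39 ± 1.10 (0.663), did not pass. The calls of Sprr1b and Dmkn were lost without the disease library, without the metformin library, and with a share of 10% in place of 20%, each of which left 4 members past the threshold. With cells thinned to 1000 UMIs, 3 members passed.

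Set against the soft-mucosa gate, 6 members were lower in the Krt76-type gate, where 3.61% of all genes were called lower and 2.12% higher. The cut-offs were unlike, at a keratin share of 20% for Krt76-type and 60% for soft-mucosa cells. Krt14, a basal keratin, stood at 11439 to 24333.9 CPM in Krt76-type cells. In cells with a keratinized share under 5% it stood at 13610.7 to 14800.5 CPM. The part of the unlike cut-offs in the differences between these gates was not tested. The log2 fold change was −2.38 ± 0.64 for Lor, −2.08 ± 0.30 for Sbsn, −1.79 ± 0.27 for Tgm3, −1.44 ± 0.21 for Krtdap and −1.32 ± 0.22 for Dmkn (all edgeR adjusted p at most 0.0198). Tgm1 was the other member called (adjusted p = 0.0405). Calml3 did not pass, with a log2 fold change of −0.02 and a 95% interval of −0.44 to 0.39, and neither did Sprr1b, with −0.37 and an interval of −1.83 to 1.09. Both intervals include differences in either direction. The call of Tgm1 was lost without any 1 of the 4 libraries (adjusted p of 0.0517 to 0.0945), and that of Lor without the disease plus metformin (0.0985) or metformin library (0.111). With cells thinned to 1000 UMIs, 3 members passed.

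**Figure D2:**
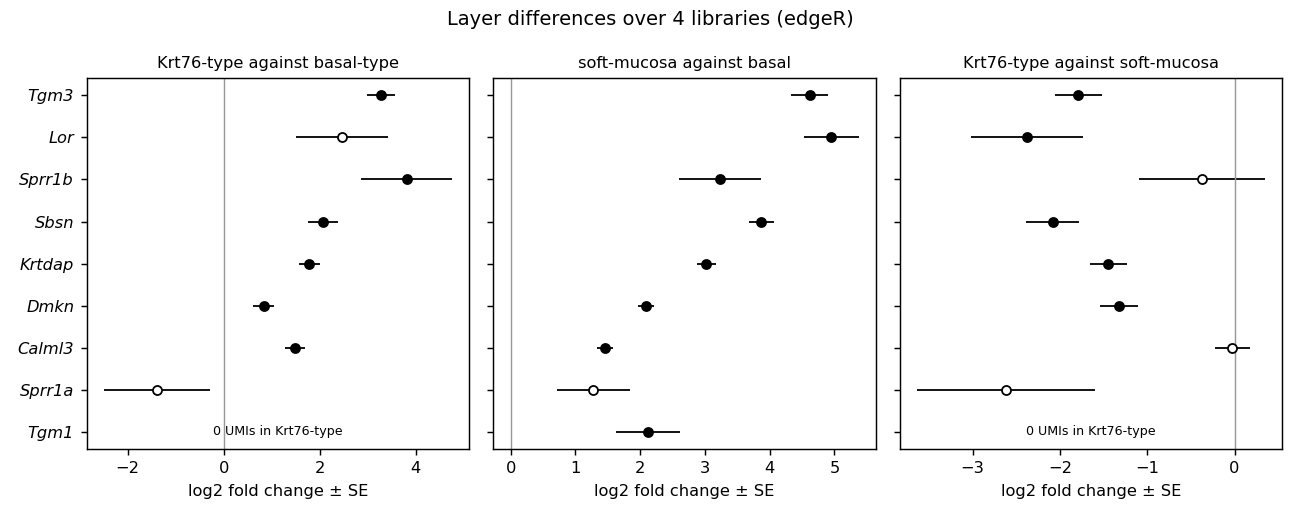
Log2 fold changes (x axis, ± SE of the fit to 4 libraries) of 9 members in 3 layer comparisons, from edgeR. Filled points had an adjusted p under 0.05. Tgm3, Sbsn, Krtdap and Dmkn are right of 0 in the Krt76-type and soft-mucosa gates against basal cells, and left of 0 in Krt76-type against soft-mucosa cells, while Calml3 is near 0 in the last panel.

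Along the keratins themselves, the secreted genes climbed in steps. When cells were ordered by their soft-mucosa share (under 5%, 5% to 20%, 20% to 60%, 60% or more), Sbsn rose at each step in 4 of 4 libraries, with medians over libraries of 84.7, 163, 370 and 1320 CPM. Krtdap rose at each step in 3 of 4 libraries, with medians of 1522, 2472, 4087 and 11067 CPM, and Tgm3 and Lor did so in 3 of 4. Dmkn was nearly level over the first 2 bins, at medians of 872 and 893 CPM, and reached 2995 CPM in the last. In the last bin, Sbsn was 6.91 to 21.2 times its level in the first, and Krtdap 3.79 to 10.5 times. Sbsn thus began to climb among cells that were still mainly basal by their keratins, and most of the change in Dmkn came in the last 2 bins.

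Ordered by their keratinized share (under 5%, 5% to 10%, 10% to 20%, 20% or more), the cells of the last bin had more Krtdap, Sbsn, Tgm3, Dmkn and Calml3 than those of the first in 4 of 4 libraries. Tgm3 had the steepest course, 9.88 to 25.4 times the first bin, and Dmkn the flattest, 1.24 to 2.47 times. Calml3 was 1.98 to 3.83 times the first bin, with medians of 551, 747, 1048 and 1616 CPM. Sprr1a was at 0 to 0.99 times its first-bin level in the last bin, with 6 UMIs there in all.

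**Figure D3:**
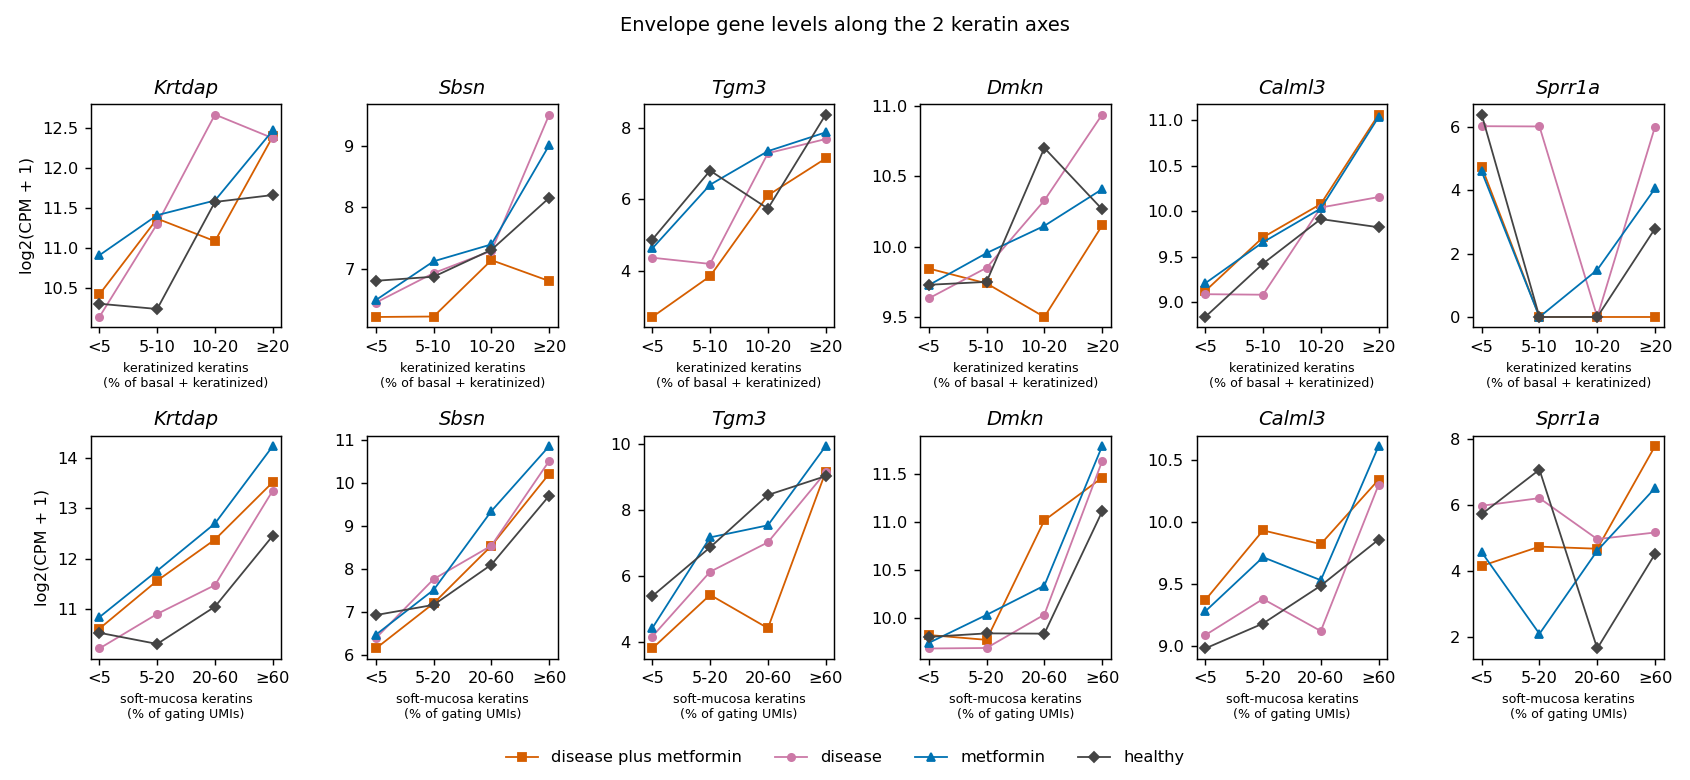
Levels of 6 members, as log2(CPM + 1), in bins of cells ordered by their share of keratinized keratins (top) and of soft-mucosa keratins (bottom), in percent. Each line is 1 library and each bin holds at least 20 cells. Sbsn climbs at each step of the soft-mucosa axis in all 4 libraries, Tgm3 is steep on both axes, and Sprr1a follows neither.

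Over the 12 sums of library and gate, the member pairs most alike in log2(CPM + 1) were Sbsn with Dmkn (r = 0.97) and Krtdap with Dmkn (r = 0.94), all from the chromosome 7 stretch. Likeness was not limited to that stretch: Tgm3 with Krtdap had r = 0.92 and Lor with Sbsn r = 0.89. Sprr1a was most like Tgm1 (r = 0.66) and least like Calml3 (r = −0.32). Among 7311 other genes, those most like the mean of the members included Pdzk1ip1 (r = 0.97), Serpinb3a (0.95), Gsto1 (0.94), Slc9a3r1 (0.94), Eif6 (0.94), Ces1h (0.92), Ly6g6c (0.92), Vat1 (0.92) and Baiap2 (0.91). The sums share libraries and the gates differ in depth, so these values are descriptions. Within soft-mucosa cells thinned to 1000 UMIs, Spearman's rho of Krtdap with Sbsn was 0.60, 0.53, 0.60 and 0.44 over 32, 72, 77 and 65 cells of the 4 libraries, and that of Krtdap with Calml3 ran from −0.28 to 0.36. Dmkn with Sbsn had rho values of 0.24, 0.40, 0.38 and 0.39, and Tgm3 with Krtdap −0.21, 0.42, 0.10 and 0.18. In that gate the secreted neighbours had positive rho values in each library, whereas Krtdap had values of both signs with Calml3 and with Tgm3. In thinned basal cells the order turned. There Krtdap with Calml3 had rho values of 0.32, 0.30, 0.28 and 0.25, and Krtdap with Sbsn 0.21, 0.21, 0.14 and 0.21. Dmkn with Sbsn ran from 0.09 to 0.18 in basal cells.

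Other genes of the envelope and barrier were read from lists. Of 47 other envelope precursors, 7 were abundant enough to test between soft-mucosa and basal cells, and 5 were higher and 1 lower in soft-mucosa cells. Crct1 (6.36 on the log2 scale, 162 UMIs in soft-mucosa against 12 in basal cells), Cnfn, cornifelin (4.50), and Sprr3 (3.15) were higher. Sprr2d, another small proline-rich protein, was called lower, with 3 UMIs in soft-mucosa against 1180 in basal cells. Among thinned basal cells, Sprr2d stood at 4429 to 10000 CPM in the few with a Sprr1a UMI. It stood at 1.43 to 65.5 CPM in the others. Whether Sprr2d was lower in soft-mucosa cells than in basal cells without Sprr1a was not tested. Of 20 genes of cross-linking, proteases and inhibitors, 12 were tested, and 9 were higher and 1 lower. Cst6, a cystatin that inhibits cathepsins of the envelope pathway, changed by 3.14 and Klk13, a kallikrein protease, by 3.62. Asprv1, an aspartic protease that cuts profilaggrin, changed by 2.71, while Sulf2, an extracellular sulfatase, was called lower, with 2 UMIs in soft-mucosa against 125 in basal cells.

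Barrier lipid genes that passed did so in 1 direction. Of 14 tested of 22, 11 were higher in soft-mucosa cells and 0 lower, with a median of 2.07 against −0.07 for all genes. Alox12b, a lipoxygenase of the envelope's lipid coat, changed by 6.31 (60 UMIs against 4), Acer1, an alkaline ceramidase, by 5.46, Elovl4, which elongates very long fatty acids, by 4.46, and Sult2b1, a cholesterol sulfotransferase, by 3.86. Of 28 regulators tested of 32, 10 were higher and 5 lower. Barx2, a homeobox factor (3.01), Grhl3, a grainyhead factor of barrier formation (2.64), and Ovol1, a zinc finger factor of epidermal differentiation (2.02), were higher, and Dlx3, another homeobox factor (−1.95), was lower. Of 12 desmosome genes tested of 13, which join keratinocytes to each other, 7 were higher and 2 lower, with a median of 0.62.

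The Krt76-type gate, with fewer cells, gave these counts. Against basal-type cells, 1 of 6 other precursors was higher (Rptn, repetin, with 12 UMIs in Krt76-type against 7 in basal cells) and 1 was lower. Of 11 cross-linking and protease genes 3 were higher and 1 lower, of 12 lipid genes 2 were higher, of 28 regulators 2 were higher and 1 lower, and of 12 desmosome genes 5 were higher. Dsc1 (4.28) and Dsg1a (1.94), desmosomal cadherins, led the desmosome genes and were also higher in Krt76-type than in soft-mucosa cells, by 2.77 and 1.55.

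Most members that could be tested were also relatively more abundant in barcodes that lacked Malat1 and mitochondrial RNA, whereas other envelope precursors were not. Barcodes with neither Malat1, a nuclear RNA, nor mitochondrial RNA were set against barcodes with both, with library and gate as terms of the fit. Of 6 members tested, 5 were higher in barcodes without these RNAs, where 30.1% of 5771 genes were called higher and 36.3% lower. The log2 fold change was 1.18 ± 0.20 for Dmkn, 0.91 ± 0.23 for Krtdap, 0.85 ± 0.18 for Calml3, 0.60 ± 0.20 for Sbsn and 0.58 ± 0.24 for Tgm3 (largest edgeR adjusted p 0.0333). Of 3 other envelope precursors tested, 0 were higher and 2 lower, the plakins Evpl (−1.34) and Ppl (−1.70). Of 8 basal adhesion genes tested, 7 were lower and 0 higher, and of 10 desmosome genes 7 were lower and 1 higher. DESeq2 called 3 members, and 3 passed without the healthy library. When the layer comparison used only barcodes with both RNAs, the same number, 8 members, passed between soft-mucosa and basal cells.

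Between conditions, the members moved in no single direction when all keratin-gated cells were summed. Against disease, disease plus metformin had 1 of 9 measured members at least 1.5-fold higher and 4 lower, where 3.82% of all measured genes were higher and 12.4% lower. Sbsn stood at 175 CPM in disease plus metformin and 351 CPM in disease, with a 95% interval of the log2 ratio of −1.14 to −0.87. Tgm3 stood at 53.8 CPM in disease plus metformin and 123 CPM in disease. The intervals for Sprr1b, the member that was higher, and for Tgm1 included 0. Against healthy, disease had 0 higher and 4 lower, where 8.91% and 5.21% of all genes were so. Tgm1 stood at 8.91 CPM in disease and 23.8 CPM in healthy gingiva, Tgm3 at 123 CPM in disease and 224 CPM in healthy, Lor at 8.74 CPM in disease and 18.9 CPM in healthy, and Sprr1b at 5.55 CPM in disease and 11.1 CPM in healthy gingiva. By these sums both transglutaminases were among the lower genes, while in the soft-mucosa gate both were within 1.5-fold of healthy.

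Metformin gingiva, set against healthy gingiva, had 3 members higher and 2 lower, where 6.39% and 13.4% of all genes were so. Krtdap stood at 5021 CPM in metformin and 2726 CPM in healthy gingiva (log2 ratio 0.88, 0.85 to 0.91), Sprr1b at 41.0 CPM in metformin and 11.1 CPM in healthy, and Lor at 34.7 CPM in metformin and 18.9 CPM in healthy gingiva. Tgm1 stood at 9.58 CPM in metformin and 23.8 CPM in healthy, and Sprr1a at 30.4 CPM in metformin and 47.6 CPM in healthy gingiva. With every cell weighted equally 0 members were higher in metformin, and Lor turned to a log2 ratio of −0.68, or to −0.11 without its leading barcode. Dmkn and Calml3 stayed within 1.5-fold in all 3 comparisons. The comparisons share libraries, so they are not independent, and soft-mucosa cells made up 6.98%, 10.7%, 8.97% and 14.4% of keratin-gated cells in disease plus metformin, disease, metformin and healthy gingiva. The median log2 ratio of all genes was −0.13 for disease plus metformin against disease and −0.14 for metformin against healthy. With layers weighted equally, the count for disease against healthy was 3 higher and 2 lower. All intervals cover counting error only and treat each UMI as independent.

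Within the soft-mucosa gate, a comparison of conditions added after the data had been seen, all 9 measured members were at least 1.5-fold higher in metformin than in healthy cells, where 7.83% of all genes were higher and 32.6% lower. Krtdap had a log2 ratio of 1.78 (1.74 to 1.82), Sbsn of 1.16, Tgm3 of 0.91, Calml3 of 0.76 and Dmkn of 0.68. The median of all genes was −0.26 on that scale. With every cell weighted equally, 2 of 9 members were higher, Krtdap at 2.15-fold and Sprr1b at 6.38-fold, where 22.5% of all genes were higher. Krtdap had a median over cells of 15244 CPM in metformin and 5637 CPM in healthy cells. The 29 metformin cells with over 10000 UMIs held 88.5% of the soft-mucosa UMIs of their library, and 12 healthy cells held 81.9%. Krt13 itself stood at 30036 CPM in metformin and 16567 CPM in healthy soft-mucosa cells. The part of cell size and of keratin content in this difference was not tested.

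In the same gate, disease plus metformin had 2 of 8 measured members higher than disease and 0 lower, where 7.44% of all genes were higher and 39.3% lower. They were Sprr1a (log2 ratio 2.65) and Lor (1.39), and 1 cell held 37.9% of the soft-mucosa UMIs of the disease plus metformin library. With every cell weighted equally Lor turned, at 82.6 CPM in disease plus metformin and 208 CPM in disease cells, and Sprr1a was 2.07-fold higher. Calml3, within 1.5-fold by sums, was then 2.07-fold lower, at 838 CPM in disease plus metformin and 1731 CPM in disease cells. With that weighting 1 member was higher and 2 were lower, where 19.2% and 44.2% of all genes were so. Disease had 4 of 9 higher than healthy, where 13.7% of all genes were higher and 8.51% lower, among them Krtdap at 10432 CPM in disease and 5608 CPM in healthy cells. With every cell weighted equally, that count was 1 higher and 1 lower, where 27.7% and 30.0% of all genes were so.

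**Figure D4:**
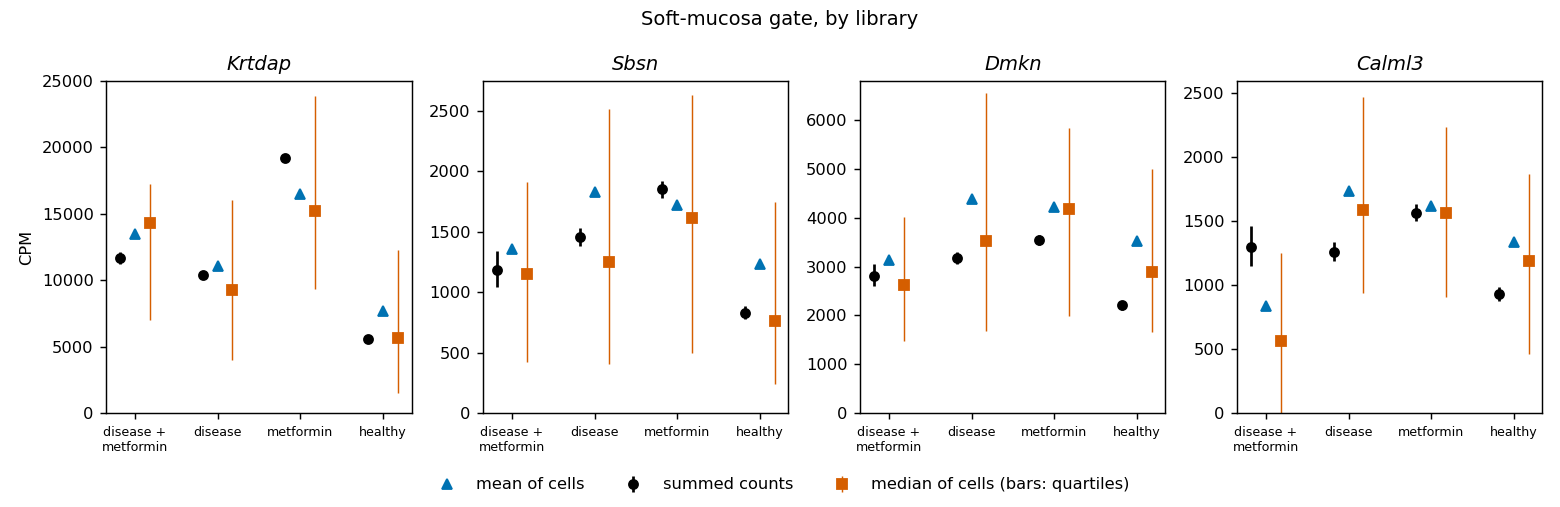
Levels of 4 members (y axis, CPM) in soft-mucosa cells of each library, as summed counts with exact Poisson 95% intervals, as the mean of the cells, and as the median of the cells with quartiles. Krtdap is highest in metformin and lowest in healthy cells by the sum, while the quartile ranges of metformin and healthy cells overlap for all 4 genes.

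By summed counts, the transglutaminases and Lor were highest in healthy cells of the basal gate. Disease plus metformin had 1 of 9 members higher than disease and 2 lower, where 3.82% of all genes were higher and 13.4% lower. Disease had 0 higher than healthy and 4 lower, where 7.63% and 7.18% of all genes were so, and metformin had 1 higher and 4 lower, where 6.03% and 19.8% were so. Tgm1 stood at 6.30 CPM in disease, 3.64 CPM in metformin and 27.2 CPM in healthy basal cells, and Tgm3 at 23.7 CPM in disease, 41.9 CPM in metformin and 75.3 CPM in healthy cells. With every cell weighted equally, disease was 1.65-fold lower than healthy for Tgm1, 1.27-fold for Tgm3 and 1.17-fold for Lor. In healthy basal cells, Tgm1 stood at 347 CPM in the 9 cells with a Sprr1a UMI and 4.16 CPM in the other 454. Basal cells without Sprr1a had 1.58 to 2.85 CPM of Tgm1 in the other libraries. Krtdap was the member that was higher in metformin than in healthy basal cells, with a log2 ratio of 0.65 (0.60 to 0.70), but with every cell weighted equally it was 1.33-fold higher and no longer counted. With that weighting disease plus metformin had 0 higher and 3 lower than disease, where 13.1% of all genes were higher and 29.1% lower. Disease had 1 higher and 2 lower than healthy, where 25.2% and 15.5% were so. Metformin had 0 higher and 2 lower than healthy, where 23.2% and 18.4% were so. Without the leading barcode of each gene, metformin had 1 higher and 2 lower, where 7.79% and 14.3% of all genes were so. With only barcodes that held Malat1 and mitochondrial RNA, disease plus metformin had 3 higher and 2 lower than disease. There 5.15% of all genes were higher and 11.1% lower. With centring on all genes the count was 3 higher and 1 lower, where 6.26% and 9.30% were so. Sprr1a stood at 18.1 CPM in disease plus metformin and 61.4 CPM in disease cells, and at 19.0 CPM in metformin and 64.8 CPM in healthy cells, so it was lower in each metformin-treated library than in its untreated counterpart.

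In the Krt76-type gate 5 members had enough UMIs to compare. Disease plus metformin had 1 higher than disease and 2 lower, where 18.6% of all genes were higher and 12.6% lower. Disease had 3 higher than healthy and 1 lower, where 22.1% and 41.3% were so, and metformin had 3 higher and 0 lower, where 18.7% and 40.1% were so. These counts rest on few UMIs: 1 cell held 45.2% of the Krt76-type UMIs in disease plus metformin and 1 cell 61.8% in healthy gingiva. With every cell weighted equally, Sbsn was 1.17-fold and Calml3 1.30-fold higher in metformin than in healthy cells, under the threshold, and Krtdap 1.55-fold.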

How the data were processed

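RNA of single gum cells was read from 4 libraries, 1 for each group of the labels. Per the submitters' processing notes, reads were converted with bcl2fastq and counted with Cell Ranger 7.0.1 on mm10. The deposited values were counts, whole UMIs per gene and barcode, with no normalization, and the lowest UMI total of a barcode was 500. The sources used here do not say whether intronic reads were counted.

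The members and lists were chosen with earlier results of these data known. A barcode was kept if it had 200 genes or more and no more than 20% of its UMIs from mitochondrial genes. Keratin-gated cells had at least 10 UMIs of 9 gating keratins, at least 1% of their UMIs, and fewer gland-list UMIs. Stromal or leukocyte cells had at least 5 UMIs of 3 or more marker genes. No doublet caller was used and doublets remain. Layers were compared with edgeR 4.0.16 (R 4.3.3; TMM, filterByExpr, quasi-likelihood, library as block) on counts summed per library and gate of at least 20 cells. Gating keratins were left out of the tests. Each p-value weighs a layer difference against a variance estimated by the fit with information shared across genes. The SE comes from the same fit and is not the plain spread of the library differences. The 4 libraries also differ in condition. The block pairs gates taken from the same library. DESeq2 1.42.0 was an alternative. The keratinized gate as first defined could not be fitted, so the Krt76-type gate, the axis bins, the soft-mucosa condition counts and the description of Sprr1a-bearing cells were added after the data had been seen, and the 4 list genes with the largest change are named from the soft-mucosa against basal test. Alternatives were other layer shares, no filter on low counts, library sizes without keratins, under 1% gland UMIs, barcodes with Malat1 and mitochondrial RNA, other weights of cells or layers, centring on all genes, the leading barcode left out, thinning to 1000 UMIs, no block, and leaving out each library. The fit was tested on simulated data: of 100 genes changed 2-fold, 61% were recovered between soft-mucosa and basal cells and 17% between Krt76-type and basal-type cells, and of 100 changed 4-fold, 99% and 65%. The changed genes were drawn from those above a mean-count floor, with the same variance setting for every gene. These shares therefore do not cover members with few UMIs.

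Conditions were compared as CPM of summed counts with exact Poisson intervals, and ratios with conditional exact binomial 95% intervals. A member was measured with at least 20 UMIs over both libraries and counted at 1.5-fold. Floors were 3 counts over a gate. Likeness used genes with a mean of at least 10 CPM. 1 gene that this rule names is not reported here. Shares of cells are of all cells in a gate. Positions are from a GRCm38 annotation and promoters from RefSeq tables, which matched 9 of 10 members.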

Additional observations from a re-analysis of the deposited data

Results flagged for a closer look

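Lor stood at 53.3 CPM in the disease barcodes that the cell filter left out (76 UMIs in 279 barcodes), against 28.6 CPM in those of healthy gingiva (47 UMIs in 309 barcodes). The value is given because it comes from barcodes outside every comparison above. The same barcodes had 0.98 CPM of Lor in disease plus metformin and 1.76 CPM in metformin gingiva. In no library did more than 1.79% of the left-out barcodes hold a Lor UMI, so these sums rest on few barcodes.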

How the results depend on the processing

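The directions of Krtdap, Sbsn, Tgm3, Dmkn and Calml3 in soft-mucosa and Krt76-type cells against basal cells held under every alternative run. Leaving out 1 library gave 6 to 9 members past the threshold between soft-mucosa and basal cells, 4 to 6 between Krt76-type and basal-type, 4 to 6 between Krt76-type and soft-mucosa, 7 to 9 between soft-mucosa and basal-type cells, and 3 to 6 for RNA quality. Thinning gave 5, 3 and 3 for the first 3 of these, and DESeq2 gave 3 for RNA quality. Without the library block, which pairs the gates of a library, the 4 layer counts were 8, 4, 4 and 8. No paired analysis was possible for conditions because each group was 1 library. The keratinized gate, and the Krt76-type gate with Malat1-positive and mitochondrial-RNA-positive barcodes alone, could not be fitted.

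Calml3, near 0 in Krt76-type against soft-mucosa cells, turned to 0.24 with DESeq2, 0.022 without the block, 0.12 at a layer share of 50% and 0.81 thinned, and ran from −0.17 to 0.11 with 1 library left out. Sprr1b there ran from −1.31 to 1.06. Lor against basal-type cells was −2.98 thinned. The cause of these changes was not tested.

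Over keratin-gated cells, equal weight for every cell gave, for disease plus metformin against disease, 0 higher and 2 lower, for disease against healthy 1 higher, and for metformin against healthy 0 higher, with Lor at a log2 ratio of −0.68. Equal weight for layers gave 2 lower in the first comparison (Tgm1 at 0.18, Sprr1a at 0.56, Sprr1b at −0.98), 3 higher and 2 lower in the second, and 5 higher and 0 lower in the third (Sprr1a at 0.31). Barcodes with Malat1 and mitochondrial RNA gave 2 higher in the first. Without each gene's leading barcode the first had 0 higher and the third 1 lower, with Lor at −0.11, and centring left 1 lower in the third. In the soft-mucosa gate, equal cells gave 1 higher and 2 lower in the first, where 19.2% and 44.2% of all genes were so. The second then had 1 higher and 1 lower, where 27.7% and 30.0% were so, and the third 2 higher, where 22.5% were. Leaving out the leading barcode gave 1 higher and 1 lower in the first, where 2.70% and 66.1% of all genes were so. Depth limits Ivl, Lor, Sprr1a, Sprr1b and Tgm1 in the smaller gates.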

Other observations

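The few basal-gate cells with Sprr1a differed from the others in a set of genes. Among basal-gate cells thinned to 1000 UMIs, those with a Sprr1a UMI numbered 4 in disease plus metformin, 14 in disease, 7 in metformin and 5 in healthy gingiva, against 366, 534, 698 and 295 cells without one. The split was made after the data had been seen, so no test was run, and with so few cells 1 UMI can be 250 CPM. Of genes with at least 20 thinned UMIs, 121 were higher in Sprr1a-bearing cells in all 4 libraries. The 10 with the largest ratios were Sprr2d, Odam, BC037156, Slpi, Cnfn, Slc6a14, Ly6g6c, Fxyd2, Mal and Tgm1. Odam, a protein of the junctional epithelium that seals the gum to the tooth, stood at 4000 to 8643 CPM in Sprr1a-bearing cells and 8.60 to 48.7 CPM in the others. BC037156 stood at 37500 to 130143 CPM and 132 to 885 CPM. Sprr2d stood at 4429 to 10000 CPM and 1.43 to 65.5 CPM, and Slpi, a secreted protease inhibitor, at 2250 to 4000 CPM and 5.73 to 19.1 CPM.

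Of the other members, Tgm1 stood at 250 to 600 CPM in Sprr1a-bearing cells and 3.75 to 10.2 CPM in the others, higher in 4 of 4 libraries. Dmkn was higher in 4 of 4 libraries, at 1200 to 2000 CPM against 1016 to 1125 CPM. Lor had no UMI in the Sprr1a-bearing cells, and Krtdap was higher in 2 of 4 libraries. Krt6b, a keratin of wounded and stressed epithelium, stood at 3500 to 13200 CPM in Sprr1a-bearing cells and 61.6 to 210 CPM in the others. Without thinning, cells with a Sprr1a UMI numbered 13, 22, 22 and 9 in disease plus metformin, disease, metformin and healthy gingiva, and the levels were lower and more varied. Odam then stood at 79.1, 2708, 189 and 1507 CPM in Sprr1a-bearing cells of those libraries, against 0.83 to 14.9 CPM in the others. Krt6b stood at 347 to 6156 CPM against 37.6 to 149 CPM, and Tgm1 at 9.42 to 347 CPM against 1.58 to 4.16 CPM.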
